A study of Mus musculus with 24 samples.

Results

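Matrix metalloproteinases (MMPs) and the tissue inhibitors of metalloproteinases (TIMPs) were followed in microvessels of the mouse brain after stroke. The members were the genes of the deposited table with the symbols Mmp2, Mmp3, Mmp9, Mmp12, Mmp14, Timp1, Timp2, Timp3 and Timp4, taken from the table by symbol. All 9 were among the 17270 genes of the table, and all 9 passed the filter on low values that left 15982 genes for testing.

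Male C57BL/6J mice aged 10 to 12 weeks had the right middle cerebral artery closed by a filament for 60 min (transient middle cerebral artery occlusion, tMCAO), or underwent a sham operation in which the filament was drawn back at once. Microvessels were prepared 24 h or 7 days later from the ipsilateral hemisphere, on the side of the operation, and from the contralateral hemisphere, which gave 8 groups of 3 libraries. Each library pooled 3 hemispheres, so that 9 mice stood behind a group, and all mice were perfused with buffer before the vessels were taken. The study prepared more samples than it analysed and left outliers out. Values were counts of reads per gene divided by a size factor of the library and rounded (normalized counts), with totals of 15924780 to 18787932 per library. Endothelial markers were high throughout: the summed level of the 10 listed genes, none of them at 0 in any library, lay between 222356 and 321368 normalized counts. It was not constant, with 222356 to 253305 in ipsilateral libraries 24 h after tMCAO and 261479 to 301882 in those 24 h after sham operation. The contralateral library 1 of the tMCAO group at 7 days stood apart with the highest sums of astrocyte markers (43933) and of neuronal markers (12573).

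MMPs are zinc-dependent proteinases that are made as inactive precursors and cut collagens, laminins and other parts of the extracellular matrix. In the brain they are known for cutting the basement membrane of vessels and tight junction proteins, by which the blood-brain barrier opens. TIMPs bind the active site of MMPs and block it, and Timp3, which is held in the matrix, also blocks several ADAM and ADAMTS proteinases.

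Promoter sequences of 3 members are shown so that the letters before their starts can be compared. These genes reached their highest levels in the same libraries (below). So did Mmp9, which had no window, and Mmp14, whose window is not shown. RefSeq (GRCm38.p6) gave windows for 7 of the 9 members, among them a pair for the 2 starts of Mmp12. The 250 bases before the start are written 5' to 3' on the plus strand, for Mmp3 at chr9:7445572-7445821, for the downstream start of Mmp12 at chr9:7347124-7347373 and for Timp1 at chrX:20869916-20870165. Capitals mark the AP-1 motif TGANTCA, the PEA3 motif AGGAAG and the TATA box TATAAA. Each was searched on both strands, and the matches shown do not overlap. The GC box (GGGCGG) was searched as well and is not marked.
Mmp3: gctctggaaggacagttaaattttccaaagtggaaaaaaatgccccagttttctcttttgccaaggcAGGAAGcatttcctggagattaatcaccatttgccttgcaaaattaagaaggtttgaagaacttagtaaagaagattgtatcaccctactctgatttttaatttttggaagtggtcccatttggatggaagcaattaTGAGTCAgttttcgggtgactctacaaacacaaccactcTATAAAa
Mmp12: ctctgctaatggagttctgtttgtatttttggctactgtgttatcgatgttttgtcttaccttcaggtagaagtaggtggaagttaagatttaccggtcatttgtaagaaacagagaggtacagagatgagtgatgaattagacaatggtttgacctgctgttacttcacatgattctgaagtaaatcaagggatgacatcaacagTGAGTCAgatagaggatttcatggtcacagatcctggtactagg
Timp1: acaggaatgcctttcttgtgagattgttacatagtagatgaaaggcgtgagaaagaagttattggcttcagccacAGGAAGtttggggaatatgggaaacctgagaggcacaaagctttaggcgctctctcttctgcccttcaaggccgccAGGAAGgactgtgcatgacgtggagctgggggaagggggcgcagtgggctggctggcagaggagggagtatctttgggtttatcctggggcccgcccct
Mmp3 and Mmp12 both held the letters TGAGTCA at nearly the same place, starting 46 bases before the start of Mmp3 and 44 bases before that of Mmp12. Of all 32851 promoter windows of this length, 6.75% held the AP-1 motif. No other window of a member held it, including that of the upstream start of Mmp12. The coordinates given below for Mmp12 begin at that upstream start. The TATA box, found in 12.4% of all windows, was present among the members only before Mmp3, starting 7 bases before the start. All these positions depend on the starts given by RefSeq. The PEA3 motif occurred in the windows of Mmp3, Mmp14, Timp1, Timp3, Timp4 and the upstream start of Mmp12, but it was present in 29.5% of all windows. The GC box was found before Mmp14, Timp1, Timp2 and Timp3, and in 32.7% of all windows. These matches describe letters and do not show that a factor binds.

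At 24 h, 4 proteinases and 1 inhibitor were higher in ipsilateral microvessels after tMCAO than after sham operation. These were the stromelysin Mmp3, the gelatinase Mmp9, the macrophage elastase Mmp12, the membrane-bound Mmp14 and Timp1. The 5 regulated members were all higher, with none lower. Over all tested genes 18.3% were regulated in this comparison and 10.0% were regulated and higher. A gene was called regulated when limma's Benjamini-Hochberg adjusted p was under 0.05 and the fold change was beyond 1.5 in either direction. The libraries of both groups did not overlap for 6 of 9 members, against 49.0% of all tested genes. The median log2 fold change of the members was 0.65, and that of all tested genes was -0.02.

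**Figure D1:**
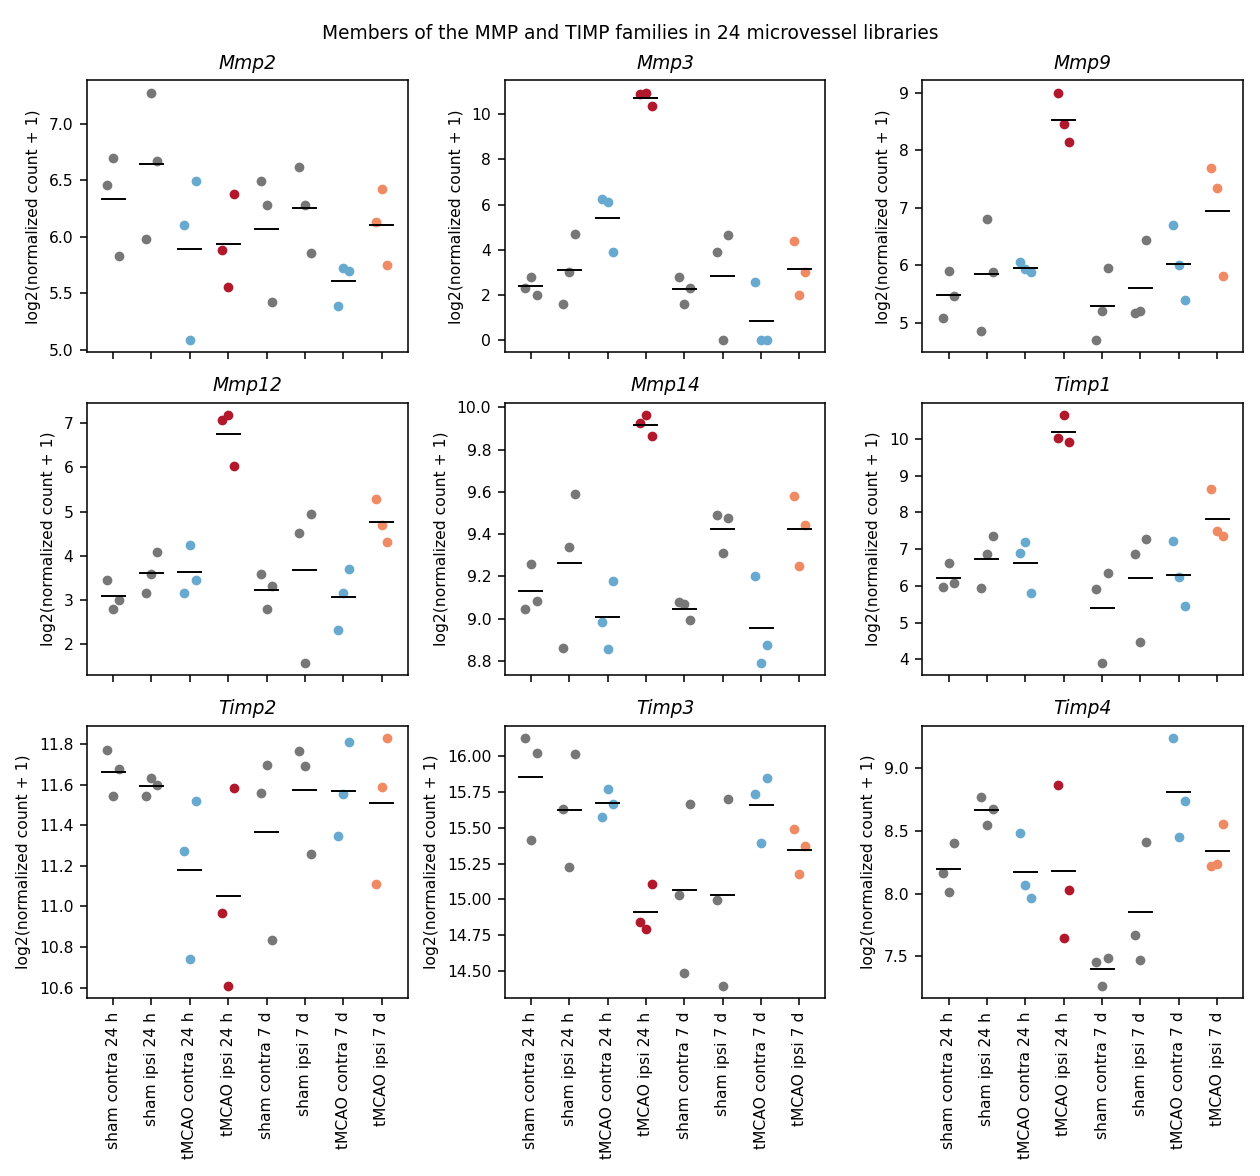
Each panel shows 1 member, with log2(normalized count + 1) on the vertical axis and the 8 groups on the horizontal axis. Points are single libraries and black lines are means of 3. The ipsilateral libraries taken 24 h after tMCAO (dark red) lie above all others for Mmp3, Mmp9, Mmp12, Mmp14 and Timp1, while Timp3 there lies between 28303 and 35302 normalized counts.

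Mmp3, which cuts many matrix proteins and activates the precursors of other MMPs, showed the largest difference of the 9 members. The gene lies on chr9:7445822-7455975 (mm10, plus strand) in the same cluster of MMP genes as Mmp12. In sham ipsilateral libraries at 24 h its normalized counts were 2, 7 and 25, and after tMCAO they were 1892, 1996 and 1329. The contralateral libraries after tMCAO held 74, 69 and 14, and those after sham operation 4, 6 and 3. At 7 days the ipsilateral libraries were back at 20, 3 and 7 after tMCAO, beside 14, 0 and 24 after sham operation. Mmp3 was thus low outside the 24 h tMCAO groups, and 3 of the 24 libraries were at 0. The log2 fold change against sham at 24 h was 7.65 (SE 1.01, limma adjusted p = 2.1e-05). This fitted fold depends on the 1 added before taking logarithms.

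Contralateral Mmp3 at 24 h was higher in every tMCAO library than in every sham library, with a log2 fold change of 3.05 (95% confidence interval 0.94 to 5.15). It did not pass the test (limma adjusted p = 1.0, unadjusted p = 0.0067). In this comparison limma regulated 0.0% of all genes, and 405 genes had an unadjusted p under 0.05. The change in contralateral Mmp3 from 24 h to 7 days after tMCAO was -4.56 (SE 1.01) and did not pass either (limma adjusted p = 0.107), where again 0.0% of all genes were regulated and 2637 had an unadjusted p under 0.05.

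The gelatinases, which cut type IV collagen of the basement membrane, behaved differently from each other. Mmp9 (chr2:164948219-164955850, plus strand) held 28, 111 and 58 normalized counts in sham ipsilateral libraries at 24 h and 513, 350 and 282 after tMCAO. The groups did not overlap, and the log2 fold change was 2.69 (SE 0.51, limma adjusted p = 6.3e-04). Mmp2 (chr8:92827291-92853420, plus strand) held 62, 154 and 101 after sham operation and 58, 46 and 82 after tMCAO. The ranges of Mmp2 overlapped, and its log2 fold change of -0.70 had a 95% confidence interval of -1.49 to 0.08 (limma adjusted p = 0.16). Over all 24 libraries Mmp2 stayed between 33 and 154 normalized counts, and it was regulated in none of the 15 comparisons. Fibroblast markers, given beside Mmp2, summed to 7985 to 15437 normalized counts 24 h after tMCAO and to 9111 to 16130 after sham operation, with 0 of 6 regulated by limma. Their part in the Mmp2 values was not tested.

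Mmp12, the elastase named for its expression in macrophages (chr9:7344397-7369499, plus strand), was low in sham ipsilateral libraries at 24 h, with 8, 11 and 16 normalized counts. After tMCAO it reached 132, 143 and 64, a log2 fold change of 3.14 (SE 0.62, limma adjusted p = 9.4e-04). All 3 libraries lay above the highest of the 18 libraries other than those ipsilateral to tMCAO, which was 30. The exons of Mmp12 share 2.17% of their bases with Mmp1b on the other strand, and whether the counting used strand is not given in the sources used here, so its counts are uncertain to that extent.

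Mmp14 sits in the cell membrane and activates the precursor of Mmp2, for which it needs Timp2. It is on chr14:54431612-54445364 (plus strand). Its normalized counts were 464, 647 and 769 in sham ipsilateral libraries at 24 h and 970, 996 and 931 after tMCAO. The change was small beside that of the other 4 regulated members, with a log2 fold change of 0.65 (SE 0.14, limma adjusted p = 0.0023). It fell under the fold limit without sham ipsilateral library 1 (0.45, limma adjusted p = 0.021). The highest of the 18 libraries other than those ipsilateral to tMCAO was 769, below all 3 tMCAO libraries.

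Among the inhibitors, only Timp1, the inducible TIMP, was regulated at 24 h in this comparison. The gene is on chrX:20870166-20874735 (plus strand) and overlaps Syn1, which is read from the other strand and shares no exon bases with it. Sham ipsilateral libraries held 61, 115 and 164 normalized counts and tMCAO libraries 1048, 1595 and 971. The log2 fold change was 3.47 (SE 0.67, limma adjusted p = 7.7e-04), and the groups did not overlap.

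Timp3 was by far the most abundant member, with a higher mean than 99.86% of all tested genes. It is on chr10:86300372-86349506 (plus strand), and 21.28% of its exon bases are shared with Syn3 on the other strand, whose mean was only 7.0 normalized counts. Its sham ipsilateral libraries at 24 h held 50685, 38316 and 66400 normalized counts, and the tMCAO libraries held 29402, 28303 and 35302. Every tMCAO library was below every sham library, but the log2 fold change of -0.71 (95% confidence interval -1.34 to -0.08) did not pass the test (limma adjusted p = 0.081). The summed level of pericyte and mural markers was lower in the same libraries. The 9 genes, none at 0 in any library, summed to 65128 to 119075 normalized counts after tMCAO and to 120733 to 131682 after sham operation. Of these, Rgs5, with a median of 58844 the most abundant, was regulated (log2 fold change -0.74, SE 0.16, limma adjusted p = 0.0024). The other 8 did not pass, and Pdgfrb and Kcnj8 had values of 0.10 each. At 7 days the pericyte and mural markers also summed to less ipsilaterally, 81857 to 116252 after tMCAO beside 133159 to 141463 after sham operation. Timp3 was not lower there (log2 fold change 0.32, limma adjusted p = 0.544). The part of these cells in the Timp3 values was not tested, and in bulk samples fewer cells of a type and less RNA per cell cannot be told apart.

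Timp2 (chr11:118301069-118355506, minus strand), a broadly expressed inhibitor, held 2985, 3171 and 3104 normalized counts in sham ipsilateral libraries and 2001, 1562 and 3065 after tMCAO. Its log2 fold change of -0.54 (95% confidence interval -1.06 to -0.02) did not pass (limma adjusted p = 0.107). Without tMCAO library 3, which lay among the sham libraries, it was -0.80 (limma adjusted p = 0.0229) and would be called. Contralateral libraries at 24 h held 2471, 1712 and 2935 after tMCAO and 3492, 2980 and 3278 after sham operation. That log2 fold change was -0.49 (95% confidence interval -1.01 to 0.04) and did not pass. Between the hemispheres 24 h after tMCAO, Timp2 differed by only -0.12 (limma adjusted p = 0.756). Timp4 (chr6:115241892-115252205, minus strand) held 436, 373 and 408 after sham operation and 465, 199 and 260 after tMCAO, with overlap. Its log2 fold change was -0.49 (95% confidence interval -1.04 to 0.06, limma adjusted p = 0.166), and -0.83 (limma adjusted p = 0.0238) without tMCAO library 1. For both inhibitors 1 library of 3 thus decided the call.

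The comparison of hemispheres after tMCAO at 24 h, which uses the same ipsilateral libraries, regulated 5 of 9 members, again Mmp3, Mmp9, Mmp12, Mmp14 and Timp1 and all higher on the ipsilateral side. Of all tested genes 13.6% were regulated and 8.51% were regulated and higher. The log2 fold changes were 5.32 for Mmp3, 3.57 for Timp1, 3.12 for Mmp12, 2.58 for Mmp9 and 0.91 for Mmp14, with limma adjusted p from 1.7e-04 to 0.00115. Contralateral levels after tMCAO were 66, 60 and 58 normalized counts for Mmp9, 8, 18 and 10 for Mmp12, 505, 463 and 579 for Mmp14, and 119, 145 and 55 for Timp1. Each of these contralateral groups overlapped the sham contralateral group. Timp3 was again lower in all ipsilateral libraries than in the contralateral ones (48845, 56079 and 52137), without passing the test (log2 fold change -0.76, limma adjusted p = 0.0735). It was called in a fit of only the compared groups (limma adjusted p = 0.0179).

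**Figure D2:**
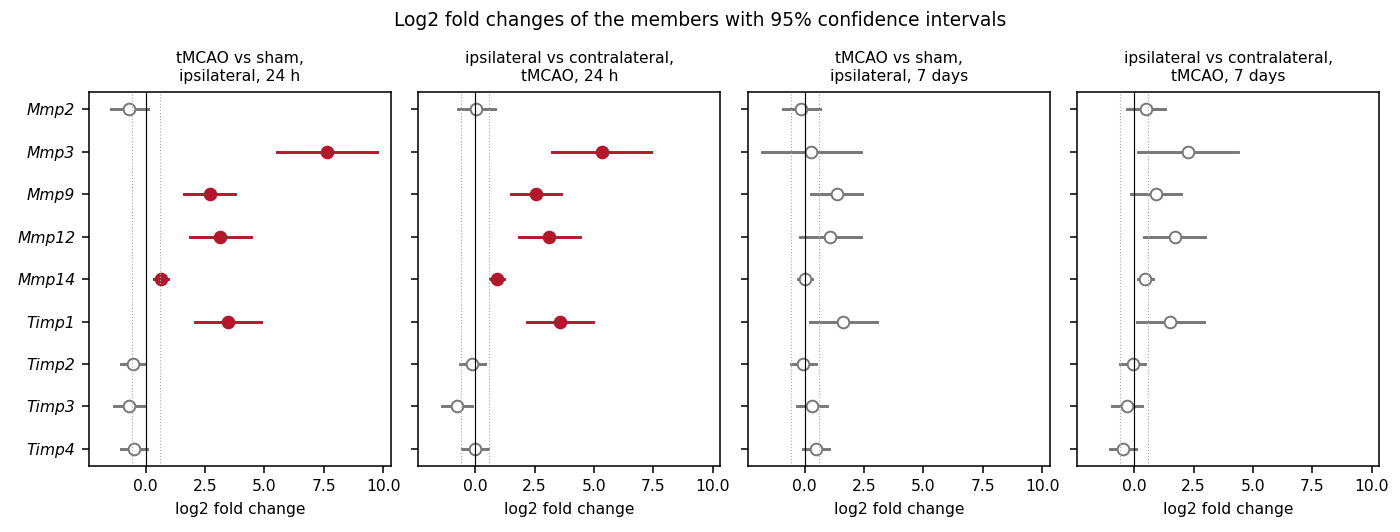
Points are log2 fold changes of the 9 members and lines their 95% confidence intervals in 4 comparisons, with dotted lines at a fold change of 1.5 in either direction. Red filled points passed the test. At 24 h the same 5 members are filled in both comparisons, and at 7 days none is in this fit of all groups without a block.

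Whether the hemispheres differed by more after tMCAO than after sham operation was tested as an interaction. At 24 h, 1 of 9 members passed, Mmp14, with a log2 difference of 0.78 (SE 0.20, limma adjusted p = 0.0249), against 5.89% of all tested genes. This call was lost when any 1 of 5 libraries was left out: sham ipsilateral library 1 (0.57, adjusted p = 0.0745), sham contralateral library 2 (0.71, 0.0741), tMCAO ipsilateral libraries 1 (0.77, 0.0577) and 2 (0.75, 0.0605), and tMCAO contralateral library 2 (0.70, 0.0614). The larger differences of Mmp3 (4.60, SE 1.42), Timp1 (3.06, SE 0.95), Mmp12 (2.60, SE 0.88) and Mmp9 (2.21, SE 0.72) had limma adjusted p from 0.054 to 0.0737 and did not pass. In a fit of only the compared groups all 4 passed, with limma adjusted p from 0.0073 to 0.029, which made 5 members in all. The same 5 were called with the replicate number as a block, which is not known to mark paired pools. In the fit of all groups, Mmp3 would be called without sham ipsilateral library 3 (5.40, adjusted p = 0.0342) and Mmp9 without sham ipsilateral library 2 (2.69, adjusted p = 0.0279). Sham hemispheres at 24 h themselves showed 0 regulated members and 0.0% of all genes, with 367 genes at an unadjusted p under 0.05 by limma and none of the 9 members among them.

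At 7 days no member was regulated between tMCAO and sham ipsilateral microvessels, while 13.2% of all tested genes were. Timp1 and Mmp9 had the lowest unadjusted p of the members, the only 2 under 0.05 by limma. Timp1 held 398, 180 and 163 normalized counts after tMCAO and 116, 21 and 154 after sham operation, without overlap. It was the only such member of the 9, against 30.0% of all tested genes. Its log2 fold change of 1.63 (95% confidence interval 0.23 to 3.03) had a limma adjusted p of 0.106. Mmp9 held 205, 161 and 55 after tMCAO and 35, 36 and 86 after sham operation, with a log2 fold change of 1.34 (95% confidence interval 0.28 to 2.39, limma adjusted p = 0.0779). Single libraries decided both calls. Without sham ipsilateral library 3, Mmp9 (1.75, limma adjusted p = 0.0354) and Timp1 (2.17, limma adjusted p = 0.0497) would be called. Without tMCAO ipsilateral library 3, Mmp9 would be called as well (1.91, limma adjusted p = 0.0135). The paper, which tested its sequencing data with DESeq2, reported Mmp9 as still significantly higher than in sham mice at 7 days. The limma result for Mmp9 here thus differs from the paper's.

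The other members at 7 days were closer to sham. Mmp12 held 38, 25 and 19 normalized counts beside 22, 2 and 30 (log2 fold change 1.08, 95% confidence interval -0.21 to 2.37). Mmp14 held 765, 607 and 696 beside 718, 634 and 712, with a log2 fold change of -0.00 and a narrow 95% confidence interval of -0.30 to 0.30. Mmp3 differed by 0.28 (-1.82 to 2.38), which at these low counts leaves large differences possible. Timp3 held 45979, 37128 and 42498 after tMCAO, within the wide sham range of 21562 to 53330. Timp2 held 2211, 3076 and 3637, beside 3483, 3303 and 2450 after sham operation, and Timp4 held 297, 301 and 376 beside 203, 176 and 339. Their log2 fold changes lay between -0.06 and 0.49, and that of Mmp2 was -0.15.

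Between the hemispheres 7 days after tMCAO, 0 of 9 members were regulated in the fit without a block, against 13.0% of all tested genes. In that fit 4 members and 4305 of the 15982 genes had an unadjusted p under 0.05 by limma. With the replicate number as a block, 4 members were called (Mmp3, Mmp9, Mmp12 and Timp1). Whether that number marks paired pools is not known. Mmp14 had a limma adjusted p of 0.0293 but a log2 fold change of 0.47, below the limit. It crossed the limit without contralateral library 1 (0.59, adjusted p = 0.0139). Mmp12 was higher in every ipsilateral library than in the contralateral ones (4, 8 and 12), with a log2 fold change of 1.71 (limma adjusted p = 0.0683). Timp1 (1.52, limma adjusted p = 0.143), whose contralateral values were 148, 75 and 43, did not overlap either. Nor did Mmp14 and Mmp2, the latter with 53 to 85 normalized counts ipsilaterally and 41 to 52 contralaterally (0.50, limma adjusted p = 0.455). That made 4 members without overlap. The share of all tested genes is not reported here for this comparison, so this cannot be read as particular to the members. Mmp3 was at 5, 0 and 0 in the contralateral libraries and gave 2.27 (limma adjusted p = 0.147), a fitted value that depends on the added 1. The interaction of hemisphere and surgery at 7 days regulated 0 of 9 members and 9.84% of all genes, with 1 member, Timp4, at an unadjusted p under 0.05 by limma.

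From 24 h to 7 days after tMCAO, 4 of 9 members fell in ipsilateral microvessels, against 12.2% of all tested genes regulated and 8.44% regulated and lower. Mmp3 fell by 7.61 (SE 1.01, limma adjusted p = 5.7e-05), Timp1 by 2.37 (SE 0.67, limma adjusted p = 0.0179), Mmp12 by 1.98 (SE 0.62, limma adjusted p = 0.0296) and Mmp9 by 1.59 (SE 0.51, limma adjusted p = 0.0325), all on the log2 scale. For these 4 members and for Mmp14 every library at 7 days was below every library at 24 h. The share of all tested genes without overlap is not reported here for this comparison, so this cannot be read as particular to the members. Mmp14 itself changed by -0.49 (limma adjusted p = 0.0219), under the limit. Only the call of Mmp3 was kept whichever library was left out. That of Mmp9 was lost in a fit of only the compared groups (limma adjusted p = 0.0547), and without 24 h library 1 (log2 fold change -1.36), 24 h library 2 (-1.63) or 7 day library 3 (-1.02). That of Mmp12 was lost without 24 h libraries 1 (-1.83) or 2 (-1.77) or 7 day libraries 2 (-1.95) or 3 (-1.76), and that of Timp1 without 24 h library 2 (-2.15) or 7 day libraries 2 (-2.20) or 3 (-2.13). Timp3 was higher in all libraries at 7 days than at 24 h, by 0.43 (limma adjusted p = 0.339).

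Whether the effect of tMCAO against sham differed between the time points was tested as a second interaction, in which 8.12% of all genes passed. Of the members, Mmp3 passed with -7.37 (SE 1.42, limma adjusted p = 0.00285). Mmp14 passed with -0.65 (SE 0.20, limma adjusted p = 0.0463), but 9 of 12 fits with 1 library left out lost this call, with values from -0.82 to -0.45 over the 12. It held only without sham library 3 at 24 h, sham library 2 at 7 days or tMCAO library 1 at 7 days, all ipsilateral. The call was also lost with median centring (limma adjusted p = 0.0791) and in a fit of only the compared groups (0.0852). Timp1 (-1.84, SE 0.95), Mmp12 (-2.05, SE 0.88) and Mmp9 (-1.35, SE 0.72) did not pass, with limma adjusted p from 0.142 to 0.238. For these 3 members a difference between 24 h and 7 days in the effect of tMCAO was therefore not shown. Without sham ipsilateral library 2 at 7 days, Mmp12 (-3.10, adjusted p = 0.00442) and Timp1 (-2.71, adjusted p = 0.0492) would be called, which brought the count of members to 4. Timp3 (1.36, adjusted p = 0.0468) and Timp4 (1.25, adjusted p = 0.0374) would be called without sham ipsilateral library 3 at 7 days, and Timp4 also without tMCAO ipsilateral library 1 at 24 h (1.32, adjusted p = 0.024).

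Timp4 moved in another pattern, with its highest group contralateral to the stroke at 7 days. Contralateral libraries held 604, 350 and 426 normalized counts after tMCAO and 174, 153 and 178 after sham operation. They did not overlap, and the log2 fold change of 1.41 (SE 0.26) fell just short of the threshold (limma adjusted p = 0.0611), in a comparison in which only 0.0313% of all tested genes were regulated and 1639 had an unadjusted p under 0.05. Without tMCAO library 1, the one with the high astrocyte and neuronal markers, the log2 fold change was 1.20 (limma adjusted p = 0.374), and without library 2 it was 1.59 and would be called (limma adjusted p = 0.041). The 6 astrocyte markers, none at 0 in any library, summed to 43933, 14876 and 17741 in these tMCAO libraries and to 11951, 12576 and 13293 in the sham libraries. Their part in the result was not tested. Exons of Timp4 share 1.53% of their bases with Syn2, a neuronal gene on the other strand.

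Timp4 was also lower in sham mice at 7 days than at 24 h, without overlap in either hemisphere. The log2 fold change was -0.82 (SE 0.26) ipsilaterally and -0.80 (SE 0.26) contralaterally, with limma adjusted p of 0.16 and 0.232. No member was regulated between the time points in sham mice, where 0.476% of all genes were regulated ipsilaterally and 0.332% contralaterally. Timp3 was the only other member with an unadjusted p under 0.05 there (contralateral, log2 fold change -0.79, limma adjusted p = 0.326), and its sham libraries varied widely, from 33488, 22951 and 52045 contralaterally at 7 days to 71608, 43641 and 66572 at 24 h. Between the sham hemispheres at 7 days, where 0.0% of all genes were regulated and 359 had an unadjusted p under 0.05 by limma, Mmp14 was higher in each ipsilateral library (718, 634 and 712) than in the contralateral ones (540, 536 and 509). Its log2 fold change of 0.38 (SE 0.14) had a limma adjusted p of 1.0 and an unadjusted p of 0.0163.

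To compare levels between genes, normalized counts were divided by the length of the exons of each gene in kb. In sham ipsilateral microvessels at 24 h the mean levels per kb were ordered as Timp3 (6361), Timp2 (832), Timp1 (128), Mmp14 (105), Timp4 (68.8), Mmp2 (31.3), Mmp9 (19.6), Mmp3 (6.29) and Mmp12 (1.61). Ranges over libraries overlapped between Timp1 and Mmp14 and between neighbours from Mmp2 down. In the same tissue 24 h after tMCAO the order was Timp3 (3807), Timp1 (1357), Mmp3 (966), Timp2 (596), Mmp14 (162), Mmp9 (114), Timp4 (52.3), Mmp2 (18.4) and Mmp12 (15.6). Here ranges overlapped between Timp1 and Mmp3, between Mmp3 and Timp2 and between Mmp2 and Mmp12. At 7 days after tMCAO Timp3 (5141), Timp2 (802), Timp1 (278), Mmp14 (116) and Timp4 (55.1) stood in the order of the 24 h sham group. They were followed by Mmp9 (41.9), Mmp2 (20.5), Mmp3 (5.55) and Mmp12 (3.78). In the sham group at 7 days Mmp14 (115) stood slightly above Timp1 (109). With the length of the longest transcript instead, Mmp14 (194) stood above Timp1 (128) in the 24 h sham group.

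The make-up of the proteinase transcripts changed with it, given here as a description. The 5 MMPs summed to 1276 ± 229 normalized counts per kb (SD, n = 3) in ipsilateral microvessels 24 h after tMCAO and to 164 ± 49.5 (SD, n = 3) after sham operation. Mmp3 made up 73.0% to 78.4% of this sum in the 3 tMCAO libraries and Mmp14 11.6% to 15.4%, whereas in all other libraries Mmp14 was the largest share, with 50.8% to 75.9%. The summed TIMPs were 7389 ± 1756 (SD, n = 3) in the sham group and 5811 ± 451 (SD, n = 3) in the stroke group. Timp3 made up 60.7% to 68.8% of them 24 h after tMCAO and 73.7% to 91.2% in all other libraries. Without Timp3, Timp1 accounted for 55.7% to 79.8% of the rest in the 24 h tMCAO libraries.

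The ratio of summed TIMPs to summed MMPs per kb was 3.86, 4.05 and 6.23 in the ipsilateral libraries 24 h after tMCAO. In all other libraries it lay between 25.6 and 77.3, and 7 days after tMCAO it was 34.2 ± 6.36 (SD, n = 3), beside 32.4 ± 8.17 (SD, n = 3) in the sham group. Without Timp3 the ratio at 24 h was 6.66 ± 1.92 (SD, n = 3) in the sham group and 1.61 ± 0.33 (SD, n = 3) in the stroke group. The ratio of Timp1 to Mmp9 alone was not lower after tMCAO. At 24 h it was 7.60 ± 3.42 (SD, n = 3) in the sham group and 12.6 ± 4.75 (SD, n = 3) in the stroke group. Its ranges overlapped. Transcripts were still more abundant for the inhibitors than for the proteinases in every library. These are mRNA levels, and protein, activation and activity were not analysed here.

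**Figure D3:**
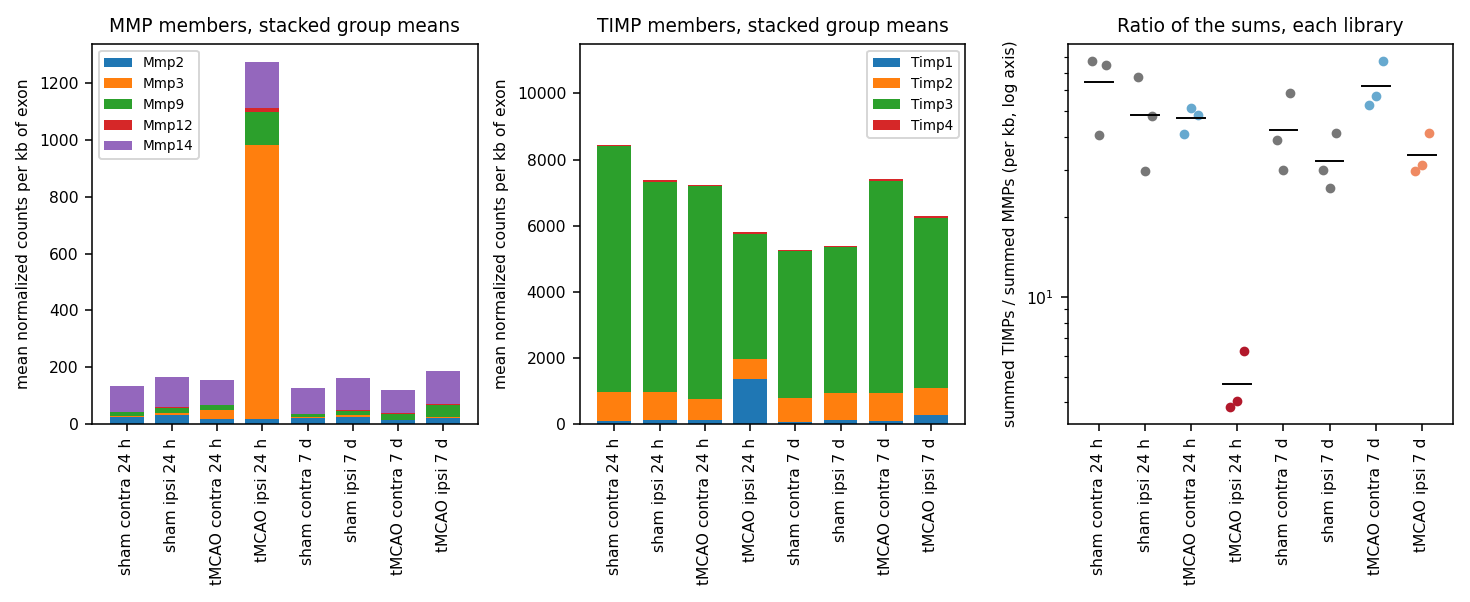
Stacked bars show mean normalized counts per kb of exon of the MMPs (left) and TIMPs (middle) in the 8 groups, and the right panel shows the ratio of their sums in each library on a log axis, with black lines at the means of 3 libraries. Mmp3 fills most of the bar 24 h after tMCAO on the ipsilateral side, where the ratio is 3.86 to 6.23 beside 25.6 or more elsewhere.

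Genes whose levels were most like those of a member over the 24 libraries (Pearson's r of log2 values, as a description) differed between the members. These libraries share groups, so that r mostly follows the differences between them. Mmp3 was most like Ccl11 (r = 0.95), a chemokine, Arg1 (0.94), arginase, and Sparc (0.93), a matrix-associated protein. Mmp9 was most like Tarm1 (0.96), Emilin2 (0.96) and Csf3r (0.96), the last being the receptor for the neutrophil growth factor G-CSF. Timp1 was most like the chemokine receptor gene Ccr1 (0.96), 1110038B12Rik (0.95) and the chemokine gene Ccl6 (0.95). Mmp12 was most like Manf (0.91), Hcls1 (0.90) and Ccl11 (0.89), and Mmp14 was most like the Fc receptor gene Fcgr1 (0.94), Avpr1a (0.90) and Smap2 (0.89). Mmp2 was most like Bgn (0.85), a matrix proteoglycan, Pdgfrl (0.83) and Scube3 (0.82). Timp3 was most like the gap junction gene Gjc1 (0.90), P2ry1 (0.90) and Ppfibp1 (0.90), Timp2 most like AC112680.3 (0.93), Ivd (0.91) and Sntb1 (0.90), and Timp4 most like Itih3 (0.84), Hr (0.79) and Gm19439 (0.78).

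Neutrophil markers, and some macrophage and monocyte markers, were higher in the libraries in which the 5 members were. The 9 neutrophil markers in the table summed to 5733, 4268 and 2508 normalized counts in ipsilateral libraries 1 to 3 at 24 h after tMCAO, in the same order as Mmp9 (513, 350 and 282), and to 220 to 1134 after sham operation. Of 7 tested, 6 were regulated and higher, among them Csf3r, and in the whole series Camp was at 0 in 13 libraries, Ngp in 3 and Ly6g in 2. At 7 days the sums after tMCAO were 4351, 2577 and 749, again in the order of Mmp9 (205, 161 and 55), and sham ipsilateral library 3, with the highest Mmp9 of its group (86), had a sum of 1633 beside 186 and 304. The 8 macrophage and monocyte markers, none at 0 in any library, summed to 10161, 7255 and 13937 at 24 h after tMCAO and to 4535 to 6901 after sham operation, with Ccr2, Lyz2 and Cd68 regulated and higher. The other 5 did not pass, among them Cd163 (log2 fold change -0.42) and Gpnmb (-0.55). Mmp12, at 132, 143 and 64, was lowest in the library with the highest of these sums. The part of these cells in the levels of Mmp9, Mmp12 and Timp1 was not tested.

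The remaining marker lists were tested in the same ipsilateral microvessels 24 h after tMCAO. Of the endothelial markers Emcn was higher and Slco1a4 and Abcb1a were lower, and the other 7 did not pass. Of 6 astrocyte markers 3 were lower, of 5 microglial markers 1, of 7 neuronal markers 4 and of 6 oligodendrocyte markers 2. None of 5 choroid plexus markers and none of the 2 tested T cell markers was regulated by limma at 24 h. At 7 days 4 of the 5 choroid plexus markers were lower.

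**Figure D4:**
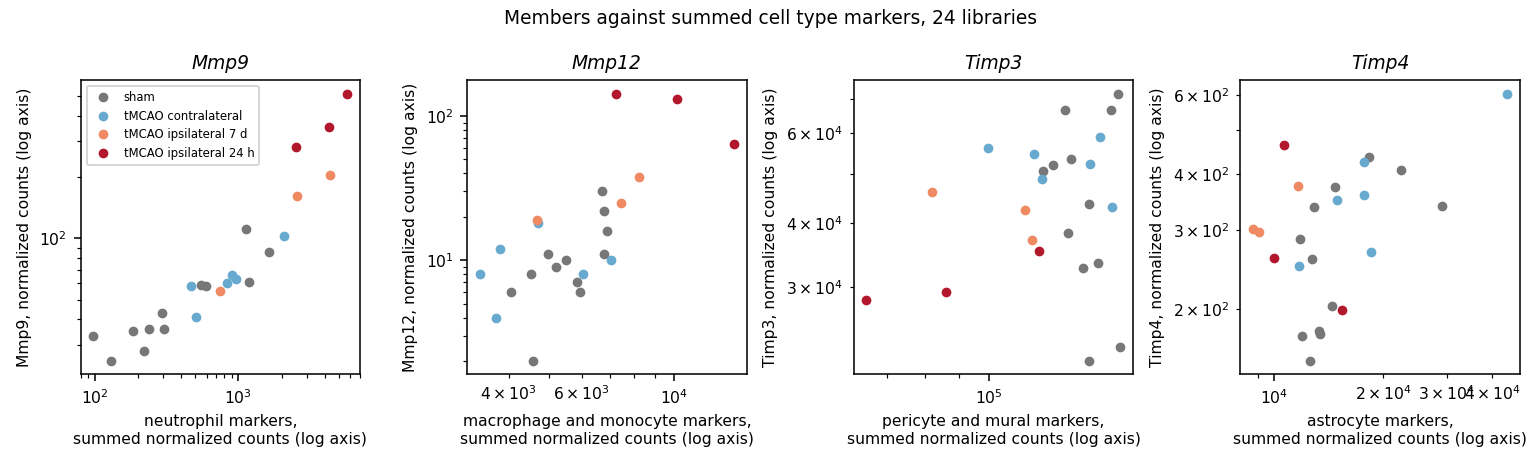
Each point is 1 library, with the summed normalized counts of a marker list on the horizontal axis and those of a member on the vertical axis, both on log axes. Mmp9 is shown against neutrophil markers, Mmp12 against macrophage and monocyte markers, Timp3 against pericyte and mural markers and Timp4 against astrocyte markers. The 24 h tMCAO ipsilateral libraries (dark red) hold the highest Mmp9, from 282 to 513, and the single Timp4 point at 604 has the highest astrocyte sum, 43933.

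Of the other MMPs, 11 of 18 listed were measured and tested, and 3 were higher and 2 lower in ipsilateral microvessels 24 h after tMCAO, with a median log2 fold change of -0.06 over the 11. The neutrophil collagenase Mmp8 rose from 11 to 58 normalized counts after sham operation to 211 to 376 after tMCAO, a log2 fold change of 3.20 (SE 1.08, limma adjusted p = 0.0306). Mmp13, another collagenase, was higher with 12 to 22 normalized counts beside 0 to 13 (adjusted p = 0.0488), and Mmp19 differed by 1.65 (SE 0.46, adjusted p = 0.0112). Mmp23 (-1.04) and Mmp17 (-0.65) were lower. At 7 days no gene of this list was higher, and Mmp24 (-2.17), Mmp16 (-1.21) and Mmp17 (-0.96) were lower. All 7 neuronal markers were lower at 7 days, with sums of 423 to 745 normalized counts after tMCAO and 3418 to 5957 after sham operation. The part of neurons in the values of these lists was not tested.

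Of 23 tested ADAM and ADAMTS proteinases, 6 were higher and 1 was lower at 24 h, with a median of 0.22. Those with the largest changes were Adam8 (log2 fold change 3.45, SE 0.66), Adamts4 (3.21, SE 0.76), Adamts7 (1.60, SE 0.33) and Adamts17 (-2.07, SE 0.42). Adamts4 is an aggrecanase, which cuts proteoglycans and is blocked by Timp3. At 7 days Adamts7 was higher (1.85, SE 0.33) and Adamts20 lower (-2.52, SE 0.65), and the other 21 did not pass.

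Regulators of MMPs split in direction at 24 h, with 5 of 19 tested higher, 4 lower and a median of 0.15. Plau, the urokinase that generates plasmin and so activates MMPs, rose from 193 ± 85.7 to 704 ± 172 normalized counts (SD, n = 3; log2 fold change 1.92, SE 0.29). Cd44 (2.77, SE 0.53), which holds Mmp9 at the cell surface, rose as well, as did Thbs1 (2.66, SE 0.51) and Tfpi2 (2.38, SE 0.49). Reck, a membrane-anchored inhibitor of MMPs, fell from 7591 ± 834 to 3613 ± 1446 (SD, n = 3; log2 fold change -1.14, SE 0.29), and Spock1 (-1.34), Spock2 (-1.24) and Bsg (-0.86), known as an inducer of MMPs, were lower too. At 7 days Spock1 (-2.41), Spock3 (-1.73) and Thbs2 (-1.14) were lower.

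Of 21 substrates in the matrix and at junctions, 6 were higher and 3 lower at 24 h, with a median of -0.00. Tnc, an adhesion-modulating matrix protein, had a log2 fold change of 6.00 (SE 0.46, limma adjusted p = 7.5e-08), followed by the proteoglycan Vcan (2.15, SE 0.26), and basement membrane genes were among the higher ones, Hspg2 (1.05), Col4a1 (1.02), Col4a2 and Lamb1. The proteoglycans Acan (-1.90) and Bcan (-1.40) were lower. Of the junction genes, Tjp1, encoding ZO-1, was lower (-0.63, SE 0.13), Ocln differed by -0.53 (SE 0.12), under the limit, and Cldn5, the main claudin of brain endothelium, by -0.03 (SE 0.16, limma adjusted p = 0.899). At 7 days Vcan (0.84), Hspg2 (0.66) and Fn1 (0.65) were higher, Ncan (-1.55) and Bcan (-1.37) were lower, and the other 16 did not pass.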

How the data were processed

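RNA of microvessels was sequenced by the authors after a TruSeq Stranded mRNA preparation, aligned to mm10 with STAR (2.5.2b in the submitters' processing notes) and counted with featureCounts 1.5.1 (Subread), leaving out reads that match several genes. The authors deposited scores that are counts divided by DESeq2 size factors (version 1.6.2 in the same notes) and rounded. They are not whole reads, so DESeq2 and edgeR were not run here. Columns of values without a sample numbered 0.

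Log2 values after adding 1 were fitted with limma 3.58.1 (R 4.3.3), its trend option and 1 model of all 8 groups. Genes entered if their mean over the libraries exceeded 5, which left 15982. Benjamini-Hochberg adjustment ran over all of them, and a call needed an adjusted p under 0.05 and a fold change beyond 1.5 in either direction. Each comparison had 3 libraries per group, and p-values measure the spread between pools. The procedure was tested on simulated data. Tables and plots used Python 3.11.15, pandas 2.3.3, numpy 2.4.6, scipy 1.17.1 and matplotlib 3.10.9.

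The members, the 4 gene lists and the 11 marker lists were chosen with earlier results of these data known. Besides the members, the text names up to 4 genes of a list per comparison, those with the largest log2 fold change among the regulated, and the 3 genes most like each member. Other genes named, among them short sets given in full and the junction genes, were chosen after their values were seen. Some values of genes on the lists are not reported here. Exon lengths came from GENCODE vM21, and 6 of 9 members had the same coordinates in it as in the deposited table.

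The spacing of low values gave size factors of 0.805 to 1.24, or about 13691467 to 20033951 reads per library. Replicates correlated at 0.967 to 0.988. Whether same-numbered hemispheres came from the same mice is not given in the sources used here. Their deviations from the group means correlated above 0.1 in every pair only between sham hemispheres (0.145 to 0.41 at 24 h, 0.325 to 0.467 at 7 days), where the block changed no call of a member.

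Alternatives were a pseudocount of 0.5, no filter, a minimum mean of 20, median centring, the replicate number as a block, only the compared groups, no limit on the fold change, the length of the longest transcript, and each library left out in turn.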

Additional observations from a re-analysis of the deposited data

Results flagged for a closer look

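Effects of tMCAO or of the hemisphere that differed between groups by a test of the difference itself were flagged for a closer look. The effect of tMCAO on ipsilateral Mmp3 was smaller at 7 days than at 24 h (log2 difference -7.37, SE 1.42, limma adjusted p = 0.00285). The sham libraries held at most 25 normalized counts of Mmp3, so that the size of this value depends on the added 1. For Mmp14 the same difference was -0.65 (SE 0.20, limma adjusted p = 0.0463). This call was lost with median centring, with the replicate block and with only the compared groups (limma adjusted p from 0.0556 to 0.0852), and in 9 of 12 fits with 1 library left out. The difference between hemispheres at 24 h was larger after tMCAO than after sham operation for Mmp14, by 0.78 (SE 0.20, limma adjusted p = 0.0249). That call was lost in 5 of 12 fits with 1 library left out (limma adjusted p up to 0.0745).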

How the results depend on the processing

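At 24 h the count of 5 members against sham and between hemispheres stayed within 1.5 times under every alternative, and no called value changed direction in any of 1124 recomputed values. Leaving out single libraries moved the count of regulated members from 0 to 2 at 7 days against sham, from 0 to 1 between hemispheres at 7 days, from 1 to 4 between 7 days and 24 h, from 1 to 4 for the interaction with time, from 0 to 2 for that of hemisphere and surgery at 24 h, and from 0 to 1 for contralateral tMCAO against sham at 7 days. With the replicate block, which is not known to mark paired pools, the counts were 4 between hemispheres at 7 days (Mmp3, Mmp9, Mmp12 and Timp1, limma adjusted p from 6.2e-04 to 0.035), 5 for hemisphere and surgery at 24 h (the same 4 and Mmp14), 1 for that at 7 days and 1 for contralateral microvessels at 7 days (both Timp4). The block also called Timp3 lower in both comparisons at 24 h and higher in the interaction with time, where it lost Mmp14 (limma adjusted p = 0.0556). Without a limit on the fold change, 1 member was called between hemispheres at 7 days. Median centring and the fit of only the compared groups each left 1 member for the interaction with time. For hemisphere and surgery at 24 h, 2 members were called with a minimum mean of 20 and 5 with only the compared groups. The cause was not tested. With the longest transcript the ratio of TIMPs to MMPs 24 h after tMCAO was 6.19. Values that changed sign had not passed the test. Median centring gave 0.0393 (Mmp14, 7 days against sham), -0.0395 (Mmp2) and -0.0774 (Timp4, both between hemispheres at 24 h). With single libraries left out, log2 values at 7 days against sham ranged from -0.35 to 0.0318 for Mmp2, -1.14 to 1.18 for Mmp3, -0.0796 to 0.087 for Mmp14, -0.22 to 0.14 for Timp2 and -0.0021 to 0.65 for Timp3. Between hemispheres they ranged from -0.36 to 0.34 for Mmp2, -0.39 to 0.10 for Timp2 and -0.34 to 0.27 for Timp4 at 24 h, and from -0.22 to 0.14 for Timp2 at 7 days. Between 7 days and 24 h they ranged from -0.0254 to 0.38 for Mmp2 and -0.11 to 0.50 for Timp4. For hemisphere and surgery they ranged from -0.67 to 0.0475 for Mmp2 and -0.32 to 0.17 for Timp2 at 24 h, and from -0.16 to 1.45 for Timp1 and -0.60 to 0.0536 for Timp3 at 7 days. At these depths, Mmp3 and Mmp12 outside the 24 h tMCAO libraries rested on few reads.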
